A study of Drosophila melanogaster with 5 samples.

Results

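Translated ORFs of 10 small RNA pathway genes were examined in ribosome footprinting data from *D. melanogaster* S2 cells, a semi-adherent line with properties of embryonic hemocytes. The genes were AGO2, Dcr-2, r2d2 and Hen1, taken as the siRNA branch, and AGO1, Dcr-1, loqs, drosha, pasha and gw, taken as the miRNA branch. Their ORFs were those lying within the Release 6 span of one of these genes and of no other protein-coding gene. Of 45306 ORFs in 5 lists, 96 met this rule, 32 in the siRNA branch and 64 in the miRNA branch. They carried 44 different identifiers and came from 10 of the 6151 genes with an ORF in any list. Another 10 ORFs in the span of Hen1 or AGO1 also lay in another gene and were left out.

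Cells were footprinted overnight at 4°C with E-RNaseI in Buffer 2, which the labels give as 100 mM Tris and 50 mM NaCl, or with A-RNaseI in Buffer 1 (50 mM Tris and 150 mM NaCl). Each condition was tested after 3 min of cycloheximide, which blocks elongating ribosomes, and without this treatment, giving 1 sample per condition. A second, deeper sample without cycloheximide in E-RNaseI and Buffer 2 gave the deep list. All cells, untreated ones included, were washed and lysed in buffer with cycloheximide, so the untreated samples are not free of the drug. The RNase and the buffer changed together, and their parts in any difference cannot be told apart.

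Small RNAs guide Argonaute proteins to complementary RNA. In flies, miRNA precursors are cut in the nucleus by Drosha with its partner Pasha and in the cytoplasm by Dcr-1 with Loqs, and the miRNA is mostly loaded into AGO1, which silences mRNAs through the GW182 protein encoded by gw. Long double-stranded RNA, from viruses or from the cell, is cut by Dcr-2, and the siRNA is loaded with the help of R2D2 into AGO2. Hen1 methylates the 3′ end of the loaded siRNA, and AGO2 cleaves the target. The branches are not fully apart, since one Loqs isoform works with Dcr-2.

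Each list gave a number of P-sites per ORF, that is, of footprints assigned to a codon in the ribosomal P-site, and no ORF in a list had fewer than 6. For each gene and list the CCDS ORF with the most P-sites was used, because ORFs of several transcripts share footprints, and levels of different genes were compared as P-sites per 100 nt of ORF. Intervals are exact 95% intervals and cover counting error only. With 1 sample per condition no test between conditions could be run, and the spread between cultures is unknown. Without RNA levels, a higher density from more mRNA and from more ribosomes per mRNA cannot be told apart.

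Of the cycloheximide lists, that of E-RNaseI held 10503 ORFs and that of A-RNaseI 7678. Of the untreated lists, the deep one held 12048, that of E-RNaseI 8456 and that of A-RNaseI 6621. On 1165 stop codons shared by all lists, P-sites numbered 912069 and 454893 in the cycloheximide lists, and 4217321, 297407 and 320749 in the untreated lists, in the same order. The deep list held a CCDS ORF of 6104 of 13962 protein-coding genes. Of 9 hemocyte markers 7 had an ORF in it. Among these Pxn (a peroxidasin, 8291 P-sites), srp (a GATA factor, 3079) and crq (a scavenger receptor, 1120) had the highest densities, and each was found in all 5 lists. Hml and vkg had 52 and 30 P-sites in the deep list, only 0.473 and 0.515 per 100 nt, and were in no other. Col4a1 had 29 P-sites with E-RNaseI and cycloheximide, against 98 in the deep list and 7 in the untreated A-RNaseI list. eater had 1155 P-sites in the deep list, or 81.5 at standard depth, and was in no standard list. NimC1 and He were in no list. Of 8 markers of germline, muscle, neurons and glia, bam was found, with 44 P-sites in the deep list and 8 in the untreated E-RNaseI list. Another 2, vas and elav, had ORFs only in spans shared with other genes and could not be assessed.

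All 10 genes had a translated ORF in the E-RNaseI list with cycloheximide, in the deep list and in the untreated E-RNaseI list. With A-RNaseI, 9 genes were found in the presence of cycloheximide, where r2d2 was missing, and 8 in its absence, where r2d2 and Hen1 were missing. The miRNA branch was complete in every list. Of the 6104 genes of the deep list, the cycloheximide lists held 91.1% (E-RNaseI) and 70.6% (A-RNaseI), and the untreated standard lists 78.6% and 63.2%.

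Among the effectors, AGO2 (chromosome 3L, 15554113 to 15561042, plus strand) encodes the Argonaute that cleaves siRNA targets. In the presence of cycloheximide AGO2 had 1229 P-sites (E-RNaseI) and 664 (A-RNaseI), against 7252 (deep list), 530 (E-RNaseI) and 618 (A-RNaseI) when cells were untreated. Values of the other genes follow the same order. Its density was 33.7 and 18.2 P-sites per 100 nt with cycloheximide, against 199, 14.5 and 16.9 without it, the highest of the 10 genes in every list. It stood above 81.6% to 88.3% of all genes. AGO1 (chromosome 2R, 13943387 to 13958089, minus strand), the Argonaute of miRNAs, had 331 and 166 P-sites with cycloheximide, against 1702, 100 and 103 without it. Its density, 11.2 and 5.79 against 57.7, 4.04 and 4.16 per 100 nt, was the next highest in every list and stood above 51.8% to 67.7% of all genes. In the E-RNaseI list with cycloheximide AGO1 did not differ beyond counting error from r2d2, which followed it (density ratio 1.03, 0.819 to 1.29).

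Of the dicers, Dcr-2 (chromosome 2R, 17574979 to 17581525, minus strand), which makes siRNAs, had 318 and 175 P-sites with cycloheximide, against 2058, 143 and 155 without it. Its density was 6.16 and 3.51 against 39.8, 2.77 and 3.00 per 100 nt. Dcr-1 (chromosome 3R, 22734007 to 22741091, minus strand), which cuts pre-miRNAs, had 109 and 63 P-sites with cycloheximide, against 663, 40 and 42 without it. Its longest ORF, 6450 nt in the deep list, was the longest of the group, although in both untreated standard lists it was 5070 nt against 5166 nt of Dcr-2. Its density was 1.83 and 1.07 against 10.3, 0.789 and 0.828 per 100 nt, above only 8.98% to 23.3% of all genes.

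Of their double-stranded RNA binding partners, r2d2 (chromosome 2L, 7800147 to 7802098, plus strand), which helps load siRNAs into AGO2, had 102 P-sites with E-RNaseI and cycloheximide, against 261 in the deep list and 24 in the untreated E-RNaseI list. Its density was 10.9 against 28.0 and 2.57 per 100 nt. At the depth of the A-RNaseI list with cycloheximide the 102 P-sites correspond to 50.9, yet no r2d2 ORF was listed there. Of 2952 genes with at least as many P-sites as r2d2 in the E-RNaseI list with cycloheximide, 159 (5.39%) were missing from the A-RNaseI list. In the absence of cycloheximide 433 of 3355 such genes (12.9%) were missing. The reason for the absence was not tested.

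The miRNA branch partner loqs (chromosome 2L, 13382652 to 13385671, plus strand) had 35 and 14 P-sites with cycloheximide, against 107, 14 and 14 without it, a density of 3.25 and 1.87 against 7.67, 1.00 and 1.00 per 100 nt. It gave 26 of the 96 ORFs, more than any other gene here, over 3 stop codons, and their P-sites rest largely on the same footprints. In the E-RNaseI list with cycloheximide the ORF with the first stop codon (1077 nt) had 35 P-sites, that with the next (1149 nt) 32 and those with the last (1254 to 1395 nt) 32 to 33. In the deep list these were 92, 88 and up to 107, and in the untreated E-RNaseI list 10, 10 and 13 to 14. Only the ORF with the first stop codon was in the A-RNaseI list with cycloheximide, in a form of 750 nt. The sources used here do not say which listed transcript encodes the isoform that works with Dcr-2.

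The nuclear pair was low in every list. The RNase III enzyme drosha (chromosome 2R, 7932429 to 7936840, plus strand) had 73 and 37 P-sites with cycloheximide, against 513, 37 and 37 without it. Its density was 1.83 and 1.31 against 12.9, 1.15 and 0.929 per 100 nt. Its RNA-binding partner pasha (chromosome 3R, 31617977 to 31622217, plus strand) had 12 and 9 P-sites with cycloheximide, against 104, 6 and 6 without it. With 0.679 and 0.509 against 5.89, 0.332 and 0.535 per 100 nt it was the lowest of the genes found in each list, above 1.73% to 12.9% of all genes. In the cycloheximide lists it lay below the next gene, Dcr-1, by more than counting error. In the untreated lists it did not, with loqs over pasha at 1.3 (0.986 to 1.72) in the deep list, Hen1 over pasha at 1.54 (0.412 to 5.76) with E-RNaseI and Dcr-1 over pasha at 1.55 (0.655 to 4.46) with A-RNaseI.

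The last pair acts on the loaded complex. gw (chromosome 4, 649041 to 660608, minus strand), whose protein recruits deadenylases to miRNA targets, had 415 and 128 P-sites with cycloheximide, against 1722, 120 and 99 without it, and 10.0 and 3.64 against 41.5, 2.97 and 2.45 per 100 nt. Hen1 (chromosome 2R, 12145710 to 12152752, plus strand), the methyltransferase of siRNAs and piRNAs, had 27 and 15 P-sites with cycloheximide, against 126 and 6 in the untreated E-RNaseI lists, deep and standard. Its density was 2.38 and 1.49 against 11.1 and 0.512 per 100 nt. With 6 P-sites it was at the minimum of the untreated E-RNaseI list, and it was missing from the untreated A-RNaseI list.

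**Figure D1:**
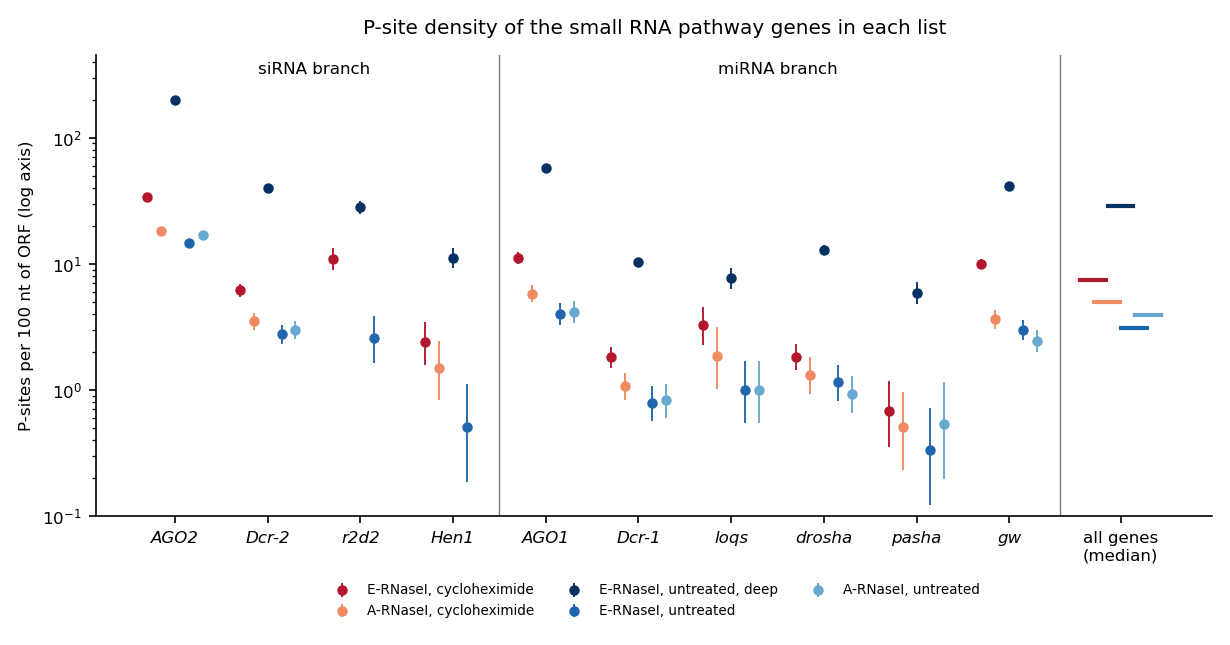
P-sites per 100 nt of the CCDS ORF with the most P-sites, on a log axis, for each gene in each of the 5 lists, with exact 95% intervals of counting error; short lines give the median of all genes of the list. AGO2 is the highest gene in every list (199 per 100 nt in the deep list) and pasha the lowest (5.89), and r2d2 has no point for either A-RNaseI list.

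Across the branches, the siRNA genes had the higher median density in every list. The median of the 4 siRNA genes was 8.54 per 100 nt, against 2.54 for the 6 miRNA genes, with E-RNaseI and cycloheximide. The median of the 3 siRNA genes found with A-RNaseI and cycloheximide was 3.51, against 1.59, a ratio of 2.21, or 3.42 when each gene's longest ORF over all lists was used as its length. In the deep list it was 33.9 against 11.6, and in the untreated E-RNaseI list 2.67 against 1.08. In the untreated A-RNaseI list only AGO2 and Dcr-2 remained of the siRNA branch and their median was 9.96, against 0.966. The branch ranges overlapped in all 5 lists, since AGO1 and gw were above Hen1 wherever Hen1 was found, and AGO1 was above Dcr-2 in the remaining list. The median of all genes was 7.49 and 5.0 per 100 nt with cycloheximide, and 28.7, 3.10 and 3.92 without it, so the miRNA branch median lay below that of all genes in every list. The siRNA branch median also lay below it with A-RNaseI and cycloheximide (3.51 against 5.0) and in the untreated E-RNaseI list (2.67 against 3.10).

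Because a branch median over so few genes moves with each gene, direct counterparts were also compared. AGO2 had 3.00 (2.66 to 3.40) and 3.14 (2.65 to 3.75) times the density of AGO1 with cycloheximide, and 3.45 (3.28 to 3.64), 3.60 (2.90 to 4.50) and 4.07 (3.30 to 5.07) times without it. Dcr-2 had 3.36 (2.70 to 4.22) and 3.27 (2.44 to 4.44) times the density of Dcr-1 with cycloheximide, and 3.88 (3.55 to 4.24), 3.51 (2.46 to 5.11) and 3.62 (2.56 to 5.22) times without it. r2d2 had 3.36 (2.27 to 5.09) times the density of loqs with E-RNaseI and cycloheximide, against 3.65 (2.90 to 4.61) in the deep list and 2.56 (1.27 to 5.36) in the untreated E-RNaseI list. AGO2, Dcr-2 and r2d2 were thus each above their counterpart by more than counting error in every list that held both. For r2d2 this leaves out both A-RNaseI lists, which held loqs but no r2d2 ORF, so its order there is unknown. Hen1 had no counterpart. The ranges of the 3 pairs overlapped, and the deep and standard untreated lists are of one condition, so they are not separate evidence.

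**Figure D2:**
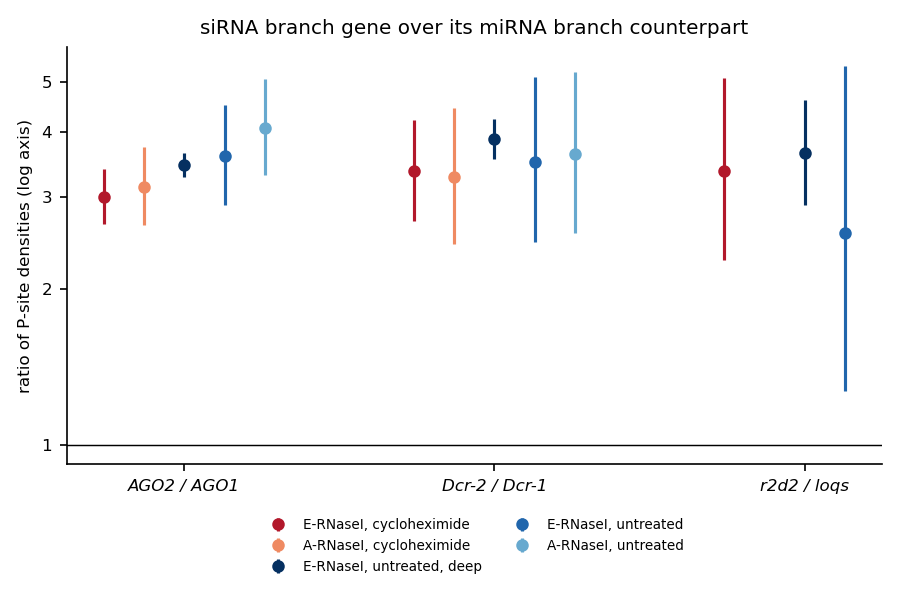
Ratio of P-site densities of each siRNA branch gene over its miRNA branch counterpart, on a log axis, in each list that held both genes; bars are exact 95% intervals of counting error and the line marks 1. The 13 ratios lie between 2.56 and 4.07 and each interval lies above 1.

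To ask whether cycloheximide changed the footprints of these genes, P-sites were divided by those of the untreated list and by the depth ratio of the lists on shared ORFs, which was 3.07 for E-RNaseI and 1.42 for A-RNaseI. None of the 10 genes in both E-RNaseI lists and none of the 8 in both A-RNaseI lists reached a scaled ratio of 2 or 0.5. Of all genes 6.09% and 8.81% did so. AGO2 had a scaled ratio of 0.756 (0.682 to 0.839) with E-RNaseI and 0.758 (0.678 to 0.847) with A-RNaseI. Dcr-2 had 0.725 (0.593 to 0.890) and 0.796 (0.638 to 0.995). Both genes thus had fewer P-sites with cycloheximide relative to the depth of the lists by more than counting error, and by a similar amount under either RNase. For Dcr-2 with A-RNaseI the called ORFs differed in length, and per nt the interval included 1. Of all genes 14.6% lay below AGO2 and 12% below Dcr-2 with E-RNaseI, and 15.9% and 19.7% with A-RNaseI.

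The third gene below 1 was drosha, at 0.643 (0.427 to 0.983) with E-RNaseI. With A-RNaseI its ratio was 0.705 (0.435 to 1.14). In all, the interval lay below 1 for 3 of 10 genes with E-RNaseI and for 2 of 8 with A-RNaseI, and above 1 for none. Over all genes it lay below 1 for 12% and 13.9%, and above 1 for 15.4% and 16.9%. AGO1 had 1.08 (0.861 to 1.36) and 1.14 (0.883 to 1.47), and gw 1.13 (0.918 to 1.39) and 0.912 (0.696 to 1.20). Dcr-1 had 0.889 (0.613 to 1.31) and 1.06 (0.705 to 1.60), and loqs 0.815 (0.428 to 1.64) and 0.705 (0.312 to 1.60). All 8 of these intervals include 1. Where the called ORFs differ in length, these ratios compare unequal stretches. Per nt of the called ORF, AGO2 was the same, Dcr-2 with A-RNaseI had 0.826 (0.661 to 1.03), an interval that includes 1, and drosha had 0.519 (0.345 to 0.793) with E-RNaseI and 0.996 (0.614 to 1.62) with A-RNaseI.

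The lowest counts left the widest intervals. pasha had a scaled ratio of 0.652 (0.227 to 2.12) with E-RNaseI and 1.06 (0.336 to 3.61) with A-RNaseI. Hen1 had 1.47 (0.593 to 4.35) and r2d2 1.39 (0.882 to 2.26) with E-RNaseI. Set against the deep list, the interval lay above 1 for 2 genes, r2d2 at 1.81 (1.42 to 2.28), above 95.8% of genes, and loqs at 1.51 (1.00 to 2.23), as it did for 20.6% of all genes. It lay below 1 for 5 genes, against 22.3% of all genes. These were AGO2 at 0.784 (0.737 to 0.833), Dcr-1 at 0.760 (0.615 to 0.932), Dcr-2 at 0.714 (0.633 to 0.804), drosha at 0.658 (0.508 to 0.842) and pasha at 0.534 (0.267 to 0.972). The ratios of Dcr-1 and loqs set unequal stretches against each other, 5952 nt against 6450 nt in the deep list and 1077 nt against 1395 nt. Ratios per nt were not computed for this pair. With these lengths both would be higher per nt, that of Dcr-1 nearer to 1 and that of loqs further above it. The interval of Dcr-1 was therefore not read as a difference per nt. For r2d2 the deep list itself held 0.767 (0.504 to 1.22) times what the standard list and the depth ratio of 14.2 give, and for loqs 0.539 (0.308 to 1.02), a value that only 0.605% of genes were below. None of the genes reached a ratio of 2 or 0.5 between the deep and the standard list, against 2.52% of all genes.

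By branch, the median scaled ratio with E-RNaseI was 1.07 over the 4 siRNA genes, which ranged from 0.725 to 1.47, and 0.852 over the 6 miRNA genes, from 0.643 to 1.13. With A-RNaseI it was 0.777 over 2 siRNA genes and 0.985 over 6 miRNA genes. The median of all genes was 1.03 and 1.02. These medians are over different siRNA genes, and the 2 genes of the A-RNaseI pair, AGO2 and Dcr-2, had a median of 0.741 with E-RNaseI. The order of the branches with E-RNaseI turned in 4 alternatives. The medians were 0.756 (siRNA) and 0.984 (miRNA) with at least 20 P-sites in both lists, which removed Hen1, loqs and pasha, 0.815 and 0.889 with loqs in the siRNA branch, and 0.751 and 0.852 with ORFs in shared gene spans allowed. With ORFs of the same identifier in both lists they were 0.756 over 3 siRNA genes and 0.769 for the 1 miRNA gene left. No order of the branches was therefore read from these ratios.

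**Figure D3:**
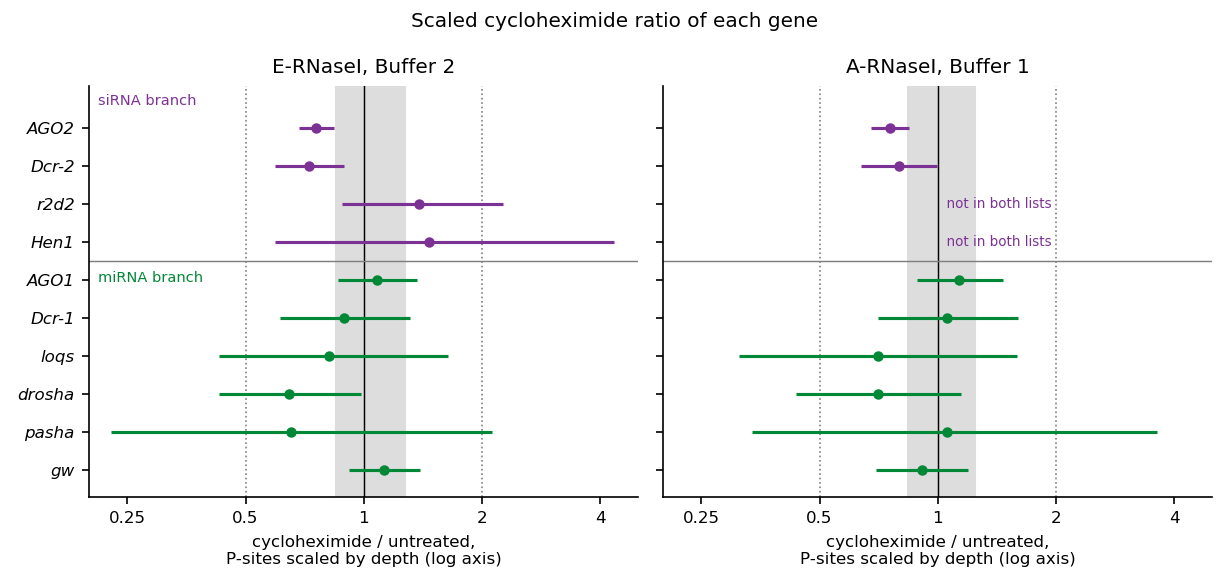
Scaled ratio of P-sites with cycloheximide over those without it for each gene, on a log axis, with exact 95% intervals of counting error, for E-RNaseI (left) and A-RNaseI (right); the grey band runs between the quartiles of all genes and dotted lines mark the ratios 0.5 and 2. AGO2 (0.756 and 0.758) and Dcr-2 (0.725 and 0.796) lie below 1 in both panels, and no point passes a dotted line.

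The 2 RNases were compared in the same way. In the presence of cycloheximide gw had 415 P-sites with E-RNaseI, against 128 with A-RNaseI, a scaled ratio of 1.62 (1.32 to 1.99). It was the one gene of 9 whose interval lay above 1, as it did for 20.7% of all genes, and it was above 89.9% of genes. Per nt of the called ORF, longer with E-RNaseI, the ratio was 1.37 (1.12 to 1.68). In the absence of cycloheximide gw had 120 against 99, a ratio of 1.31 (0.993 to 1.72). The other genes lay between 0.665 (pasha, 0.257 to 1.79) and 1.25 (loqs, 0.654 to 2.51) with cycloheximide and between 0.925 (AGO2, 0.822 to 1.04) and 1.08 without it, where drosha, loqs and pasha had equal P-sites in both lists. None of the genes reached 2 or 0.5 in either comparison, against 6.96% of all genes with cycloheximide and 6.66% without it.

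The start codon given to a gene often differed between lists. RiboTaper accepted a start only where a minimum of P-sites backed it. P-sites at the 5′ end were not tabulated, and their part in the differences was not tested. For the same transcript and stop codon, 6 of 10 genes had another start with cycloheximide than without it in E-RNaseI, 4 of them upstream, against 50.4% of 4714 genes, 37.6% upstream. In A-RNaseI 7 of 8 genes differed, 3 of them upstream, against 56.9% and 35.1% of 3396 genes.

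The start of AGO2 was the same in each pair of standard lists, and 2 of its 4 ORF identifiers were in all 5 lists. No other gene of the group had an identifier in all 5 lists, as 16.3% of the genes of the deep list did. Dcr-2 had the same 5166 nt ORF in 4 lists and an ORF shorter by 186 nt with A-RNaseI and cycloheximide. r2d2 had 1 ORF of 933 nt in the 3 lists that held it. In E-RNaseI the start of the miRNA genes was further upstream with cycloheximide by 372 and 474 nt on the 2 transcripts of AGO1, by 882 nt in Dcr-1, by 768 nt in drosha and by 117 nt in gw. It was further downstream by 39 nt in pasha and in Hen1, where the untreated list held 6 P-sites each. It was the same in loqs, on 6 transcripts.

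In A-RNaseI the start was further upstream with cycloheximide by 390 nt in AGO1, by 801 nt in Dcr-1 and by 645 nt in pasha. It was further downstream by 186 nt in Dcr-2, by 1164 nt in drosha, by 522 nt in gw and by 327 nt in loqs. AGO1 and Dcr-1 were thus the only genes of the 8 whose start lay upstream with cycloheximide under both RNases. The share of all genes with such a start was not computed. By branch, 1 of 4 siRNA genes and 5 of 6 miRNA genes differed in E-RNaseI, and 1 of 2 and 6 of 6 in A-RNaseI.

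These counts moved with the number of P-sites. Over all genes in E-RNaseI, the start differed in 65.0% of those with 6 to 19 P-sites in the untreated list, in 56.6% with 20 to 49, in 47.9% with 50 to 99, in 35.1% with 100 to 199 and in 25% with 200 or more. In A-RNaseI the shares ran from 81.1% to 33.8%. AGO2 was the only gene of the group above 200 P-sites in both untreated standard lists. Starts also differed between the deep and the standard E-RNaseI list, both untreated, in 7 of 10 genes. In the deep list 5 lay upstream, by 372 and 474 nt in AGO1, 1380 nt in Dcr-1, 768 nt in drosha, 117 nt in gw and up to 36 nt in AGO2. The other 2, pasha and Hen1, lay 39 nt downstream. No share over all genes was computed for these 2 lists. Against the deep list, 7 of 10 genes had the same start with cycloheximide in E-RNaseI, among them AGO1, drosha and gw. The share over all genes was not computed for this pair, so whether 7 of 10 is usual is unknown. The remaining 3 were AGO2, which differed by 36 nt on 1 of 3 transcripts, Dcr-1, whose start lay 498 nt downstream of that in the deep list, and pasha, on 1 of 2 transcripts.

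**Figure D4:**
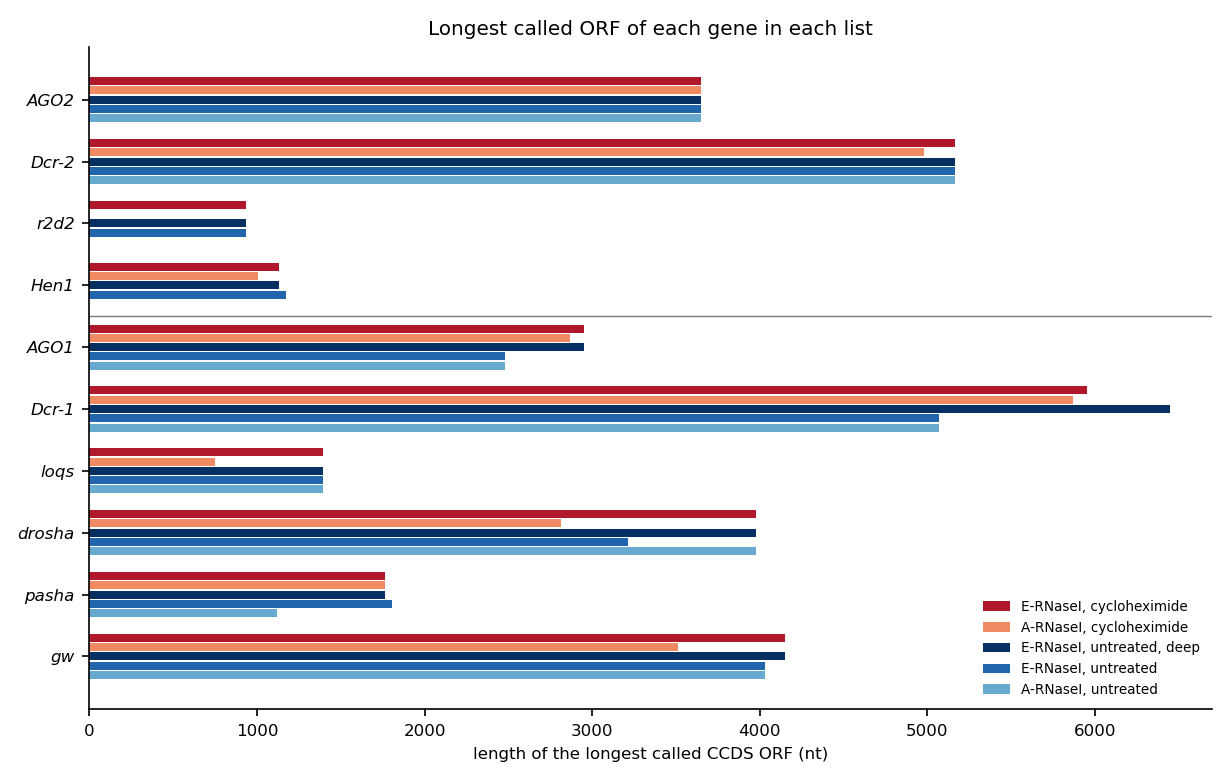
Length in nt of the longest called CCDS ORF of each gene in each of the 5 lists, with cycloheximide above untreated; a missing bar means that no ORF was listed. AGO2 has one length in all lists (3651 nt), while Dcr-1 ranges from 5070 nt in both untreated standard lists to 6450 nt in the deep list.

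The nested ORFs of AGO2 allowed the footprints along it to be compared. The ORF of a further AGO2 transcript covered the last 2325 nt of the 3651 nt ORF (2361 nt in the deep list), which leaves a 5′ part of 1326 nt, 36.3% of the length. In the cycloheximide lists this part held 16.0% (14.0 to 18.2) of the P-sites of AGO2 (E-RNaseI) and 17.3% (14.5 to 20.4) (A-RNaseI). In untreated cells the share was 20.1% (19.2 to 21) in the deep list, 20% (16.7 to 23.7) in the E-RNaseI list and 17.0% (14.1 to 20.2) in the A-RNaseI list. The density was thus 2.99 and 2.72 times higher in the 3′ part than in the 5′ part with cycloheximide, and 2.18, 2.28 and 2.79 times without it. The start of the AGO2 protein is rich in glutamine repeats, and the part of multimapping reads in this difference was not tested.

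One uORF was found in the group. It lay on a gw transcript, in the deep list only, on chromosome 4 from 658391 to 658431 on the minus strand, with 14 codons over 42 nt, and ended 53 nt before the main start. It held 58 P-sites, 138 per 100 nt, which is 3.33 times the density of the gw main ORF. The 232 uORFs of the deep list had a median of 22 P-sites and of 40.4 per 100 nt, and 84.5% of them were less dense than that of gw. Of the genes of the deep list 3.24% had a uORF.

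The wider pathways were described from lists of known factors. For scale, 6151 of 13962 protein-coding genes had an ORF in some list. Of 7 genes of miRNA biogenesis and export, all 7 were found with E-RNaseI, deep list included, and 4 with A-RNaseI and cycloheximide, against 7 without it. The densest in the deep list were the cap-binding subunits Cbp20 (828 P-sites) and Cbp80 (1791) and their partner Ars2 (2035). Of 11 genes listed for RISC loading, the assembly of the Argonaute complex, or as siRNA cofactors, 10 were found in every list. The other, vig, had ORFs only in a span shared with another gene and was left out of the values of this group. Their median density with E-RNaseI was 87.9 with cycloheximide, against 31.2 without it. The densest were the chaperones Hsc70-4 (10341 P-sites against 3618), Hsp83 (8172 against 2443) and Stip1 (2111 against 674). These values were not scaled to depth, and the depth ratio of the E-RNaseI lists was 3.07. The scaled cycloheximide ratio was 0.932 for Hsc70-4, 1.09 for Hsp83 and 1.02 for Stip1, with a group median of 0.960. These chaperones serve many other proteins. Of 16 genes listed as silencing partners of GW182 or for deadenylation and decapping, 16 were found in both cycloheximide lists and in the deep list. The untreated E-RNaseI and A-RNaseI lists held 15 and 13. The poly(A)-binding protein pAbp, the helicase me31B and tral, its partner, were the densest, with 6459, 3664 and 2252 P-sites in the deep list.

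Both E-RNaseI lists held 7 of the biogenesis genes, 10 of the RISC loading and siRNA cofactor group and 15 of the GW182, deadenylation and decapping group. Both A-RNaseI lists held 4, 10 and 13. None of these genes but 2 passed a scaled cycloheximide ratio of 2 or 0.5, against 6.09% (E-RNaseI) and 8.81% (A-RNaseI) of all genes. Rga, a subunit of the CCR4-NOT deadenylase, had 278 P-sites with cycloheximide, against 40 without it, in E-RNaseI, a scaled ratio of 2.27. In A-RNaseI the decapping enzyme DCP2 had 42 against 11, a ratio of 2.69. Both ratios set called ORFs of different length against each other, 1755 nt against 975 nt for Rga and 1695 nt against 210 nt for DCP2. Per nt of the called ORF the scaled ratio was 1.26 for Rga and 0.334 for DCP2. Both were named because they passed the ratio. The median scaled ratio in E-RNaseI was 1.05, 0.960 and 1.03 over these 3 groups, in the same order, near the 1.03 of all genes.

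The piRNA pathway, which acts mainly in the germline and in the somatic cells around it, was present in part. Of 29 genes 21 were found in some list, 20 and 17 in the cycloheximide lists of E-RNaseI and A-RNaseI, against 21 in the deep list and 17 and 15 in the other untreated lists. Of 13962 protein-coding genes, 6151 had an ORF in some list. The 5 lists held 5592, 4326, 6104, 4803 and 3862 of them, in the same order. Among the PIWI proteins, aub had 372 and 196 P-sites with cycloheximide, against 2088, 146 and 164 without it, a density of 80.4 per 100 nt in the deep list, above that of AGO1. piwi had 15 P-sites in the deep list and was in no other, and AGO3 was in none. The other genes in no list were qin, tj, vas, rhi, moon, armi and SoYb, of which all but qin and tj had ORFs in spans shared with another gene.

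Of the Tudor domain proteins, which bind PIWI proteins, the deep list held 2335 P-sites for tud, 1978 for krimp, 1021 for spn-E, 948 for fs(1)Yb, 681 for BoYb, 450 for papi, 313 for tej and 295 for vret. Of the factors of piRNA processing and PIWI modification it held 844 for the cochaperone shu, 587 for the methyltransferase subunit csul, 254 for Gasz and 233 for the nuclease zuc. Of the nuclear factors it held 843 for del, 692 for the histone methyltransferase egg, 552 for mael, 301 for nxf2, 155 for arx, 118 for Panx and 12 for cuff. None of the 17 piRNA genes in both E-RNaseI lists and none of the 13 in both A-RNaseI lists passed a scaled cycloheximide ratio of 2 or 0.5. Of all genes 6.09% and 8.81% did so, shares at which few or none would pass among so few genes. The medians of the piRNA genes were 0.997 and 0.843.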

How the data were processed

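Ribo-seq was performed by the authors on S2 cells. Per the labels and methods they trimmed adapters (cutadapt 2.10), removed rRNA and tRNA reads (Bowtie2 2.4.1), mapped the rest to FlyBase Release 6 (STAR 2.7.5c, SAMtools 1.10) and called ORFs with RiboTaper. The 5 deposited lists give each ORF an unnormalized whole number, taken here as its P-site count. Neither the lists nor the methods name this number. The methods describe subsampling to a common read number, and the sources used here do not say whether the standard lists come from it. The labels and the methods differ in the NaCl of Buffer 2 and in the cycloheximide unit. Nor do they say whether the deep sample is the standard library sequenced again.

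Exon lines were joined by identifier and lengths were taken from transcript positions. Exon sums exceeded these by 1 nt on the plus strand and fell short by 1 nt on the minus strand, so ORF edges may be off by 1 nt. Genes were assigned by position with the RefSeq table (13962 protein-coding genes). Values were computed in scipy 1.17.1, pandas 2.3.3 and numpy 2.4.6 under Python 3.11.15, and ratios and matching of starts were tested on simulated data. Ratios were scaled by the P-sites of the 1544 ORFs that every list held, 1 per stop codon (1165). Intervals are Clopper-Pearson intervals of a share, or exact Poisson intervals of a count. No sequences are shown, as none were used here.

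The text names all 10 genes in every list, the 3 densest genes in the deep list of each further gene list, and each piRNA pathway gene with an ORF. The members and gene lists were chosen with earlier results of these data known. The alternatives were other ORFs per gene, other scalings, other places of loqs, a minimum of 20 P-sites, shared gene spans, a ratio of 1.5, other matching of starts, and the deep list. Use of ORFs with the same identifier, of genes found in all 5 lists and of P-sites per nt in the ratios was added after seeing the data.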

Additional observations from a re-analysis of the deposited data

Results flagged for a closer look

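For 3 genes the scaled cycloheximide ratio was above 1 under one RNase and below 1 under the other, with 1 sample per condition. Dcr-1 had 0.889 with E-RNaseI and 1.06 with A-RNaseI, gw 1.13 and 0.912, and pasha 0.652 and 1.06. All 6 intervals included 1 and the differences were not tested.

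For 3 genes the called start moved in opposite directions with cycloheximide under the 2 RNases (positive upstream). The distances were 768 nt with E-RNaseI and -1164 nt with A-RNaseI for drosha, 117 and -522 nt for gw, and -39 and 645 nt for pasha. These differences were not tested. The untreated lists held 37 P-sites of drosha and 6 of pasha under either RNase, and 120 and 99 of gw.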

How the results depend on the processing

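Of 130 values of a comparison recomputed under another setting, 115 stayed within their interval or within 1.5 times the count, as did 205 of 224 values of single genes. Some settings could not move a value, as leaving out loqs does not touch the siRNA branch. The intervals were also wide. The siRNA median cycloheximide ratio with E-RNaseI counted as staying when it fell from 1.07 to 0.756, which turned the order of the branches. These counts are therefore no measure of stability. Without scaling to depth the median cycloheximide ratio was 3.28 (siRNA) and 2.61 (miRNA) with E-RNaseI and 1.10 (siRNA) with A-RNaseI, and the ratio of E-RNaseI over A-RNaseI with cycloheximide was 1.82 and 1.98. Of the ratios whose interval excluded 1, those of AGO2 (2.32 and 1.07), Dcr-2 (2.22 and 1.13) and, with E-RNaseI, drosha (1.97) changed direction unscaled. Another 14 single-gene ratios, all unscaled, left their interval. Ratios whose interval included 1 could also cross it, as Dcr-1 did with E-RNaseI (0.889 scaled, 2.725 unscaled). That setting compares depths as well as genes. With loqs in the siRNA branch the siRNA over miRNA density ratio was 2.17 in the deep list (2.93 with loqs in the miRNA branch) and 3.23 in the untreated A-RNaseI list (10.3). Over the 8 genes found in all 5 lists, an alternative chosen after seeing the data, it was 7.83 and 6.82 with cycloheximide, and 10.3 and 8.02 in the deep and untreated E-RNaseI lists, since only AGO2 and Dcr-2 then made up the siRNA branch. With each gene's longest ORF over all lists as its length the density ratio with A-RNaseI and cycloheximide was 3.42 in place of 2.21, within its interval. At a ratio of 1.5 in place of 2, 2 genes passed in the E-RNaseI cycloheximide pair (pasha and drosha, against 21.6% of all genes) and 2 between the RNases with cycloheximide (pasha and gw, against 20.5%). Against the deep list, 3 genes in place of 6 had another start and 1 in place of 4 had one upstream, without a share over all genes to set beside these counts.

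No paired analysis was possible because each condition had 1 sample. The cycloheximide intervals of pasha, loqs and Hen1 (6 to 35 P-sites in the standard lists) included a change of 1.5 times in either direction, so such a change was not detectable. An ORF that was not listed has no stated upper limit of P-sites, since the lists hold only ORFs that passed the authors' calls.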
